A study of Homo sapiens with 8 samples.

Results

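The writers and erasers of cytosine methylation are described here in CEM, an established human cell line from a T-cell acute lymphoblastic leukaemia. They comprise the DNA methyltransferases DNMT1, DNMT3A and DNMT3B, the DNMT1 cofactor UHRF1 and the dioxygenases TET1, TET2 and TET3. All probe sets whose gene symbol was exactly one of these 7 names in the deposited annotation were taken, which gave 7 genes of the 20282 named on the array and 13 of its 54613 probe sets, manufacturer controls left out. DNMT3A, TET2 and TET3 had 3 probe sets each, and the other 4 genes had 1 each. In the knockdown group, 4 cultures had been transfected with an shRNA against ZMIZ1, a PIAS-like transcriptional coactivator. In the control group, 4 cultures had been transfected with a scrambled shRNA. The design text calls the cultures biological replicates without pairing, and no second shRNA, rescue or untransfected culture was analysed here, so off-target effects of this shRNA and effects of less ZMIZ1 cannot be told apart. The sources used here do not say whether the transfected cells were a pool or a clone. Total RNA was amplified and biotin-labelled from the 3′ end and hybridized to Affymetrix HG-U133 Plus 2.0 arrays, 1 per culture. All levels are log2 values from RMA (robust multi-array average), and all differences are knockdown minus control on that scale.

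DNA methylation is the addition of a methyl group to cytosine, in mammals mostly where a guanine follows (CpG). DNMT3A and DNMT3B place new methyl groups, while DNMT1 copies the pattern onto the new strand after replication, guided by UHRF1, which binds the hemimethylated site. The TET enzymes oxidize 5-methylcytosine with oxygen, iron and 2-oxoglutarate as the first step of its removal. Mutations of DNMT3A and TET2 are recurrent in human leukaemias, including T-cell leukaemias.

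The target of the shRNA was checked first. The brightest ZMIZ1 probe set (212124_at) lay between 9.76 and 10.07 in the knockdown arrays, against 11.07 to 11.20 in the control arrays, a difference of -1.21 ± 0.08 (SE; limma, adjusted p = 0.000109), or 43.2% of the control level. The arrays also differed in the signal of the 18S ribosomal RNA control probe sets, a measure of ribosomal RNA left in the labelled target. That signal was 12.12, 11.67, 9.85 and 10.21 in knockdown replicates 1 to 4, against 13.37, 13.24, 13.06 and 12.70 in control replicates 1 to 4 (exact permutation p = 0.0286, the smallest that 70 assignments of 8 arrays can give). Knockdown replicates 3 and 4 thus stood apart, and the 7 genes and the named list genes were also fitted with knockdown replicates 1 and 2 only and with the 18S signal as a covariate. The spread between the 3′ and 5′ control probe sets of ACTB, a measure of RNA integrity, was 1.62 to 2.61 in knockdown arrays and 0.69 to 2.37 in control arrays (exact permutation p = 0.286). Of 14 T-lineage markers 1 rose, 1 fell and 12 did not pass. CD3E was higher by 1.06 ± 0.12 (SE; limma, adjusted p = 0.000922) and CD1A lower, with a difference of -0.93 ± 0.08 (adjusted p = 0.000355), both larger than any difference of the 13 probe sets. CD3D and LCK were bright, with CD3D at 13.22 ± 0.07 in knockdown and 13.41 ± 0.06 in control arrays and LCK at 10.76 ± 0.25 and 10.63 ± 0.03 (SD, n = 4), whereas CD2 was dim at 4.12 ± 0.17 and 4.02 ± 0.14. Of 6 myeloid markers all 6 averaged under 6 over the 8 arrays, and of 6 B-lineage markers 3 did, among them MS4A1 at 4.07 ± 0.11 in knockdown and 3.99 ± 0.08 in control arrays. The B-lineage marker CD79B did not, at 8.02 ± 0.1 in knockdown and 7.98 ± 0.24 in control arrays. Nor did CD79A, at 7.41 ± 0.15 and 7.28 ± 0.02 in the same order, or CD22, which lay just above 6. The mean of the myeloid markers ranged over arrays from 4.43 to 4.53 in knockdown and from 4.53 to 4.60 in control arrays, and that of the B-lineage markers from 5.57 to 5.70 and from 5.57 to 5.63. Of 5 erythroid markers measured 4 averaged under 6, while EPOR was at 8.17 ± 0.03 in knockdown and 8.22 ± 0.07 in control arrays. HBB rose by 0.44 ± 0.08 (limma, adjusted p = 0.0074), and the mean of the 5 ranged from 5.82 to 5.91 in knockdown and from 5.70 to 5.71 in control arrays. In a bulk culture, fewer cells that express a gene and less RNA per cell cannot be told apart.

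The maintenance pair DNMT1 and UHRF1 did not pass the test, while the de novo enzymes and the TET enzymes moved in both directions. On the brightest probe set of each gene, DNMT3A, TET2 and TET3 rose and DNMT3B and TET1 fell. Of the 13 probe sets, 5 rose, 3 fell and 5 did not pass (limma, Benjamini-Hochberg adjusted p under 0.05 over all 54613 probe sets). All 8 that passed had groups that did not overlap. The array as a whole was widely changed: 13.9% of all probe sets passed (8.38% higher and 5.52% lower), and in 19.8% the groups did not overlap. Bright probe sets passed more often, and 10 of the 13 averaged at least 6 over the 8 arrays. Of these 10, 6 passed and the same number did not overlap, against 27.7% that passed and 35.5% that did not overlap among all probe sets of that brightness. The differences were small: none of the 13 reached 2-fold, the median size was 0.41 against 0.12 over the array, and the signed median was -0.02 against 0.008. These array medians are over all 54613 probe sets, of which 20978 averaged at least 6. They are not matched to the brightness of the 13. In the authors' deposited table, 4 of the 13 had a p under 0.01 and more than a 1.3-fold difference, namely those of DNMT3B and TET1 and a pair of TET3 probe sets. No share of all probe sets under this rule is given, so that count cannot be set against the array.

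The number that passed depended on which arrays and terms entered the fit. With knockdown replicates 1 and 2 only, 1 of the 13 probe sets passed (TET2 227624_at), against 3.56% of the array. With the 18S covariate 0 passed by limma (3 had an unadjusted p under 0.05), against 0.0879% of the array. The methods' t-test, an equal-variance comparison of the same values, passed 2, those of DNMT3B and TET1. Each array left out in turn left 4 to 8, and the calls of DNMT3B, TET1 and the brighter pair of TET3 probe sets passed in all 8 of these fits.

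**Figure D1:**
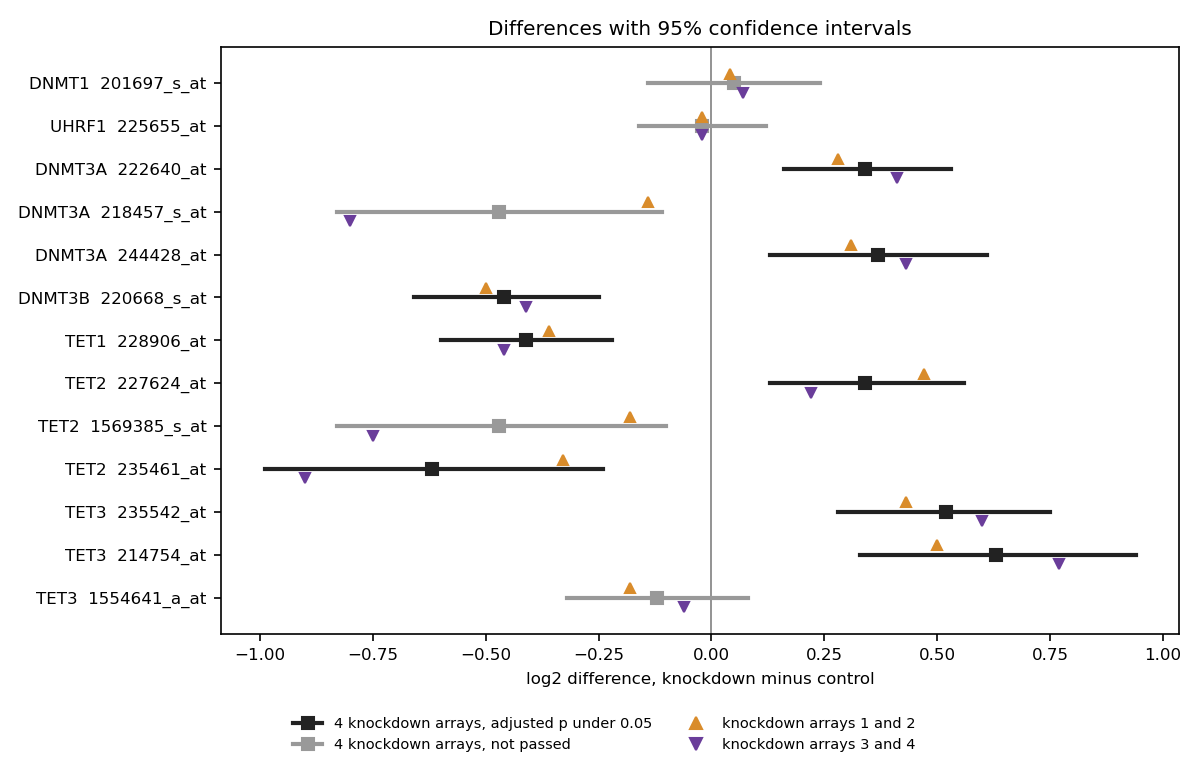
Log2 difference, knockdown minus control, of the 13 probe sets of the 7 genes (x axis) by probe set (y axis). Squares are the differences over 4 arrays per group with 95% confidence intervals, black where the adjusted p was under 0.05 and grey where not. Triangles give the difference of knockdown arrays 1 and 2 (upward) and 3 and 4 (downward) from the mean of the 4 control arrays; the pairs of triangles lie far apart for DNMT3A 218457_s_at (-0.14 and -0.80), TET2 1569385_s_at (-0.18 and -0.75) and TET2 235461_at (-0.33 and -0.90).

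Promoter sequences are shown for the 3 genes in which a RefSeq promoter window holds the E-box CACGTG, the letters recognized by MYC and related factors. A window spans 250 bases before a transcription start site to 50 after it (RefSeq, GRCh38.p14), and all 7 genes matched, with 18 windows. The E-box, which reads the same on both strands, was in 4 windows, of DNMT3A, TET2 and TET3, and in none of the windows of DNMT1, UHRF1, DNMT3B and TET1. It was in 7.26% of all 35116 windows, and in 7.28% of genes with 1 window, 12.8% with 2, 18.2% with 3 and 22.8% with 6. DNMT1 and DNMT3B had 1 window each, TET2 and TET3 had 2, and UHRF1 and TET1 had 3. DNMT3A had 6, and its 2 windows with a match overlap and share it. The letters TTCCCGC, a form of the E2F motif searched on both strands, were in 6.55% of all windows and in 1 window each of UHRF1 and TET3, and TTGGCGC, another such form, was in 3.04% of all windows and in none of the 18. None of the matches overlapped another motif. A match is a description of letters and was not tested as a site, and a link between matches and the direction of change was not tested. The 250 bases before the start sites follow, 5′ to 3′ on the strand of the gene, with the E-box in capitals.
DNMT3A, chr2:25252316-25252565, minus strand: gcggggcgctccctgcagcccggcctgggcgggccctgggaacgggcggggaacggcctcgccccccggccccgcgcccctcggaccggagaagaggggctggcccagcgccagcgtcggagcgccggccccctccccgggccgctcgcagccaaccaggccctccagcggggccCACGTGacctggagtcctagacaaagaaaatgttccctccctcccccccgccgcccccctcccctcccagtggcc
TET2, chr4:105145625-105145874, plus strand: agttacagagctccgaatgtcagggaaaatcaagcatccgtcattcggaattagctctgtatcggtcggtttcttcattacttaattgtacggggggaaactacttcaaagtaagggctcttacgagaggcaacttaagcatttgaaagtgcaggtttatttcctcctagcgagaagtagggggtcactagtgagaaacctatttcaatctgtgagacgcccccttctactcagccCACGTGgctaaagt
TET3, chr2:73984660-73984909, plus strand: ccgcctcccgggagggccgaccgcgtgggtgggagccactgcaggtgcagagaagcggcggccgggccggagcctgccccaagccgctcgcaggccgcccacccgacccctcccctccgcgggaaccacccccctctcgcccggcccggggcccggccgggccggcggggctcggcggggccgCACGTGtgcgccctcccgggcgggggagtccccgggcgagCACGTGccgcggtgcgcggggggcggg
The E-box begins 75 bases before this DNMT3A start site, which lies inside the gene, 14 bases before that of TET2, and 67 and 27 bases before that of TET3.

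DNMT1 (201697_s_at), the maintenance methyltransferase, was at 12.52, 12.50, 12.53 and 12.55 in knockdown replicates 1 to 4, against 12.42, 12.39, 12.37 and 12.71 in control replicates 1 to 4. The knockdown arrays lay inside the range of the control arrays, of which replicate 4 was the highest. The difference was 0.05 ± 0.09 (SE; 95% confidence interval -0.14 to 0.24; adjusted p = 0.742). The interval allows a level from 0.910-fold to 1.18-fold of control. The difference was 0.04 with knockdown replicates 1 and 2 only and -0.04 with the 18S covariate. DNMT1 was brighter than 98.6% of probe sets.

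UHRF1 (225655_at), which brings DNMT1 to hemimethylated DNA, was at 12.71, 12.75, 12.69 and 12.77 in knockdown arrays, against 12.74, 12.73, 12.75 and 12.79 in control arrays. The groups overlapped, and the values of all 8 arrays lay close together, with an SD of 0.03 in each group. The difference was -0.02 ± 0.06 (SE; 95% confidence interval -0.16 to 0.12; adjusted p = 0.861), which allows 0.893-fold to 1.08-fold. It was -0.02 with knockdown replicates 1 and 2 only and -0.03 with the 18S covariate.

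DNMT3A, a de novo methyltransferase, rose on 2 of its 3 probe sets and was lower, without passing, on the third. The brightest (222640_at) was at 10.56, 10.49, 10.66 and 10.65 in knockdown arrays, against 10.37, 10.28, 10.27 and 10.06 in control arrays. Every knockdown array lay above every control array, with a gap of 0.116 between the groups. The difference was 0.34 ± 0.08 (SE; adjusted p = 0.0223), a 1.27-fold rise. The dim 244428_at was at 5.24, 5.15, 5.45 and 5.18 in knockdown arrays, against 5.04, 4.80, 5.04 and 4.65 in control arrays, again without overlap. It rose by 0.37 ± 0.11 (adjusted p = 0.0431), and of the 8 fits with an array left out it passed in 1, that without control replicate 1 (up to 0.116 in the others). These 2 probe sets moved by like amounts, and the rise of 222640_at no longer passed without control replicate 3 or knockdown replicate 3 or 4 (adjusted p up to 0.0692), nor with the replicate number as a block (0.0514). With knockdown replicates 1 and 2 only, their differences were 0.28 and 0.31 (adjusted p = 0.196 and 0.229), and with the 18S covariate 0.29 and 0.30 (0.482 and 0.576).

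The other DNMT3A probe set (218457_s_at) was at 9.79, 9.55, 8.95 and 9.08 in knockdown arrays, against 9.78, 9.84, 9.71 and 9.92 in control arrays. Knockdown replicate 1 lay inside the control range, replicate 2 below it, and replicates 3 and 4 furthest below, in the arrays with the lowest 18S signal. The difference of -0.47 ± 0.16 (SE) did not pass (adjusted p = 0.0851). It was -0.14 with knockdown replicates 1 and 2 only, and 0.22, of the opposite sign, with the 18S covariate (adjusted p = 0.513 and 0.631). Without knockdown replicate 1 it was -0.62 and passed (adjusted p = 0.0168).

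DNMT3B, the other de novo methyltransferase, fell. Its probe set 220668_s_at was at 8.58, 8.65, 8.72 and 8.68 in knockdown arrays, against 8.95, 9.14, 9.01 and 9.36 in control arrays. The knockdown arrays were close together and all lay below the control arrays, by at least 0.23. DNMT3B fell by 0.46 ± 0.09 (SE; adjusted p = 0.0104), to 72.9% of the control level. The call held whichever array was left out, at differences from -0.51 to -0.37 (adjusted p up to 0.0315). The difference was -0.50 with knockdown replicates 1 and 2 only and -0.62 with the 18S covariate, where the call ended (adjusted p = 0.0679 and 0.160).

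**Figure D2:**
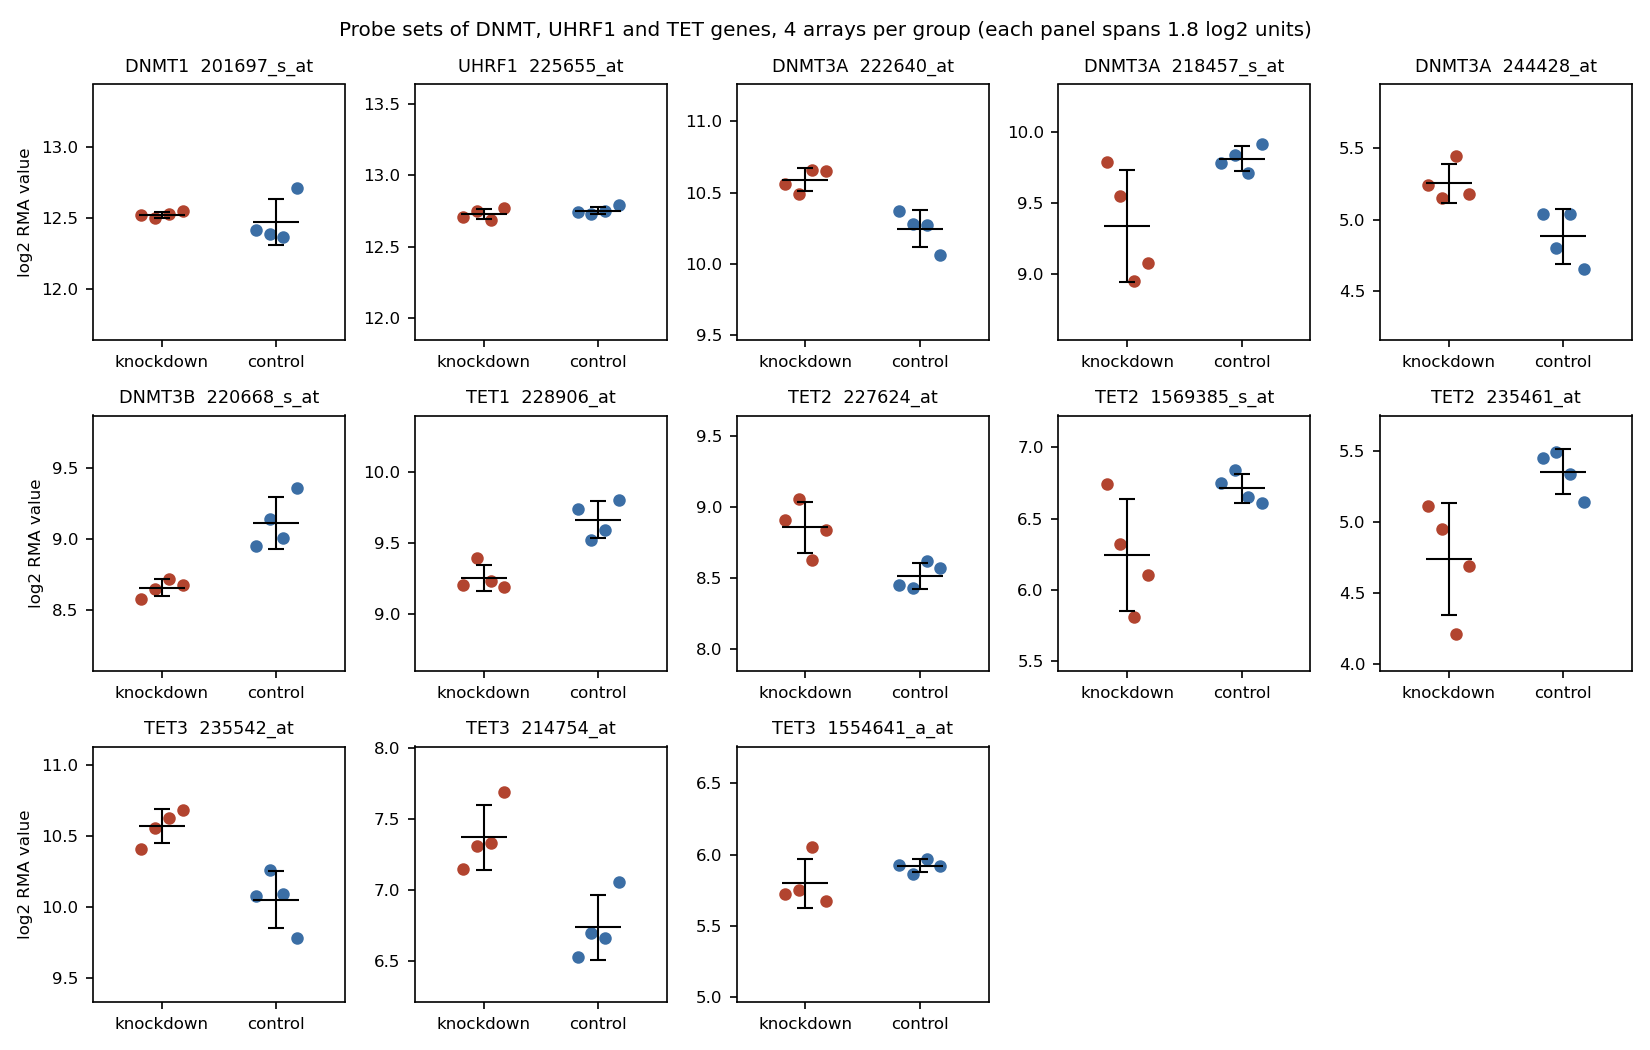
Log2 RMA values (y axis) of the 13 probe sets, with the 4 knockdown arrays (red points, left) and the 4 control arrays (blue points, right) of each; bars are the group mean and SD, points within a group run from replicate 1 to 4, and every panel spans 1.8 log2 units. DNMT3B (8.66 ± 0.06 and 9.11 ± 0.18) and TET1 (9.25 ± 0.10 and 9.66 ± 0.13) lie lower in knockdown arrays, and TET3 235542_at (10.57 ± 0.12 and 10.05 ± 0.20) lies higher, each without overlap.

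TET1, the TET enzyme with a CXXC domain that binds unmethylated CpG, fell. Its probe set 228906_at was at 9.20, 9.39, 9.23 and 9.19 in knockdown arrays, against 9.74, 9.52, 9.59 and 9.80 in control arrays. The highest knockdown array lay below the lowest control array by 0.121. TET1 fell by 0.41 ± 0.09 (SE; adjusted p = 0.0117), to 75.3% of the control level. With each array left out the difference was -0.46 to -0.36 and passed (adjusted p up to 0.0419). It was -0.36 with knockdown replicates 1 and 2 only and -0.37 with the 18S covariate, and passed in neither fit (adjusted p = 0.123 and 0.371).

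TET2, which lacks a CXXC domain of its own, had probe sets that passed in opposite directions. The brightest (227624_at) was at 8.91, 9.06, 8.63 and 8.84 in knockdown arrays, against 8.45, 8.43, 8.62 and 8.57 in control arrays. Knockdown replicate 3 was only 0.0115 above control replicate 3, so the groups barely separated. The rise was 0.34 ± 0.10 (SE; adjusted p = 0.0408). Of the 8 fits with an array left out, it passed in 1, the fit without knockdown replicate 3 (adjusted p = 0.0194; up to 0.0957 in the others), and with the replicate number as a block the adjusted p was 0.0845. It was the probe set that passed with knockdown replicates 1 and 2 only (0.47; adjusted p = 0.0426), and with the 18S covariate it was higher by 0.57 (adjusted p = 0.185).

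The dim TET2 probe set 235461_at was at 5.11, 4.95, 4.21 and 4.69 in knockdown arrays, against 5.45, 5.49, 5.34 and 5.14 in control arrays. Knockdown replicates 3 and 4 were the lowest, and the groups were separated by 0.0325. It fell by 0.62 ± 0.17 (SE; adjusted p = 0.0374), a call that ended in 5 of the 8 fits with an array left out, namely those that dropped control replicate 1, 2 or 3 or knockdown replicate 3 or 4 (adjusted p up to 0.0944). The third (1569385_s_at) was at 6.74, 6.32, 5.81 and 6.10 in knockdown arrays, against 6.75, 6.84, 6.65 and 6.61 in control arrays. Here knockdown replicate 1 lay inside the control range, and the difference of -0.47 ± 0.16 did not pass (adjusted p = 0.0875). With knockdown replicates 1 and 2 only, the differences of these 2 probe sets were -0.33 and -0.18, and with the 18S covariate they turned to 0.11 and 0.24 (adjusted p = 0.833 and 0.571).

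TET3, the TET enzyme of the zygote in mice, which also carries a CXXC domain, rose the most among the brightest probe sets. Its brightest (235542_at) was at 10.41, 10.56, 10.63 and 10.68 in knockdown arrays, against 10.08, 10.26, 10.09 and 9.78 in control arrays. All knockdown arrays lay above all control arrays, and the rise was 0.52 ± 0.11 (SE; adjusted p = 0.0101), or 1.43-fold. A second probe set (214754_at) was at 7.15, 7.31, 7.33 and 7.69 in knockdown arrays, against 6.53, 6.70, 6.66 and 7.06 in control arrays. It rose by 0.63 ± 0.14 (adjusted p = 0.0125), or 1.55-fold, again without overlap. Both passed with each array left out (adjusted p up to 0.0375 and 0.0433), and with knockdown replicates 1 and 2 only their differences were 0.43 and 0.50 (adjusted p = 0.121 and 0.110). With the 18S covariate they were 0.41 and 0.26 (adjusted p = 0.411 and 0.659). The third TET3 probe set (1554641_a_at) ranged from 5.67 to 6.05 in knockdown arrays, against 5.86 to 5.97 in control arrays, and its difference of -0.12 ± 0.09 did not pass (adjusted p = 0.427), nor did it with knockdown replicates 1 and 2 only (-0.18) or with the 18S covariate (-0.29).

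Probe sets of the same gene thus differed in DNMT3A, TET2 and TET3. Within each array, the log2 difference between 2 probe sets of a gene was taken for all 9 such pairs and set against the other group by exact permutation (two-sided), a comparison chosen after the values were seen. In DNMT3A, 222640_at minus 218457_s_at was 1.25 ± 0.46 in knockdown arrays and 0.43 ± 0.20 in control arrays (SD, n = 4; exact p = 0.0286; 0.0429 adjusted over the 9 pairs). In TET2, 227624_at minus 235461_at was 4.12 ± 0.25 in knockdown arrays and 3.16 ± 0.23 in control arrays, with the same exact p. In TET3, 235542_at minus 1554641_a_at was 4.77 ± 0.18 in knockdown arrays and 4.13 ± 0.22 in control arrays, also with that exact p. The 3 other pairs with the smallest exact p were 218457_s_at with 244428_at, 227624_at with 1569385_s_at, and 214754_at with 1554641_a_at. Of the lower members of these pairs, only TET2 235461_at was itself called lower by limma. The TET3 probe set 1554641_a_at was dim (5.80 in knockdown and 5.92 in control arrays), and its own difference of -0.12 ± 0.09 (SE) did not pass. The 3 pairs that did not pass were 222640_at with 244428_at, 1569385_s_at with 235461_at, and 235542_at with 214754_at (exact p from 0.114 to 0.686).

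The shift between the DNMT3A probe sets 222640_at and 218457_s_at was 0.82 over all arrays, 0.43 with knockdown replicates 1 and 2 only and 0.07 with the 18S covariate. That between the TET2 probe sets 227624_at and 235461_at was 0.96, 0.80 and 0.46 in the same fits, and that between the TET3 probe sets 235542_at and 1554641_a_at was 0.64, 0.62 and 0.70. The position of the probes along the transcripts was not used here. Among the 3704 genes on the array that had more than 1 probe set and at least 1 call, 179 (4.83%), TET2 among them, were called in both directions. Genes with only 1 called probe set are in this base and could not be called in both directions. The share is therefore lower than among genes with several called probe sets. Probe sets ending in _s_at or _x_at, which can match several transcripts, had a median difference of 0.006 against 0.008 for the others, and 41.5% of their calls were lower against 38.7% for the others.

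**Figure D3:**
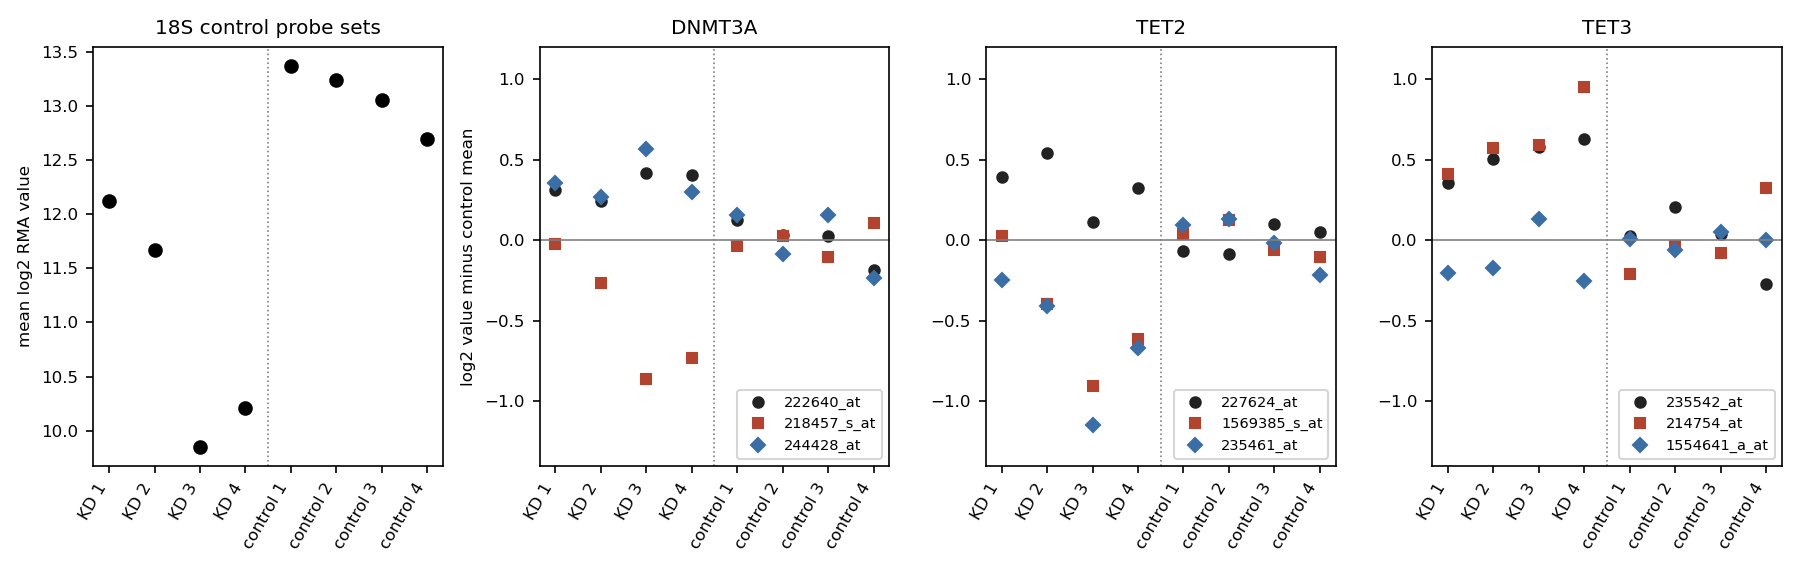
The left panel gives the mean log2 RMA value of the 18S ribosomal RNA control probe sets (y axis) in each array (x axis; KD, knockdown). The other panels give the log2 value of each probe set of DNMT3A, TET2 and TET3 minus its mean over the 4 control arrays; in knockdown arrays 3 and 4, where the 18S signal was 9.85 and 10.21, DNMT3A 218457_s_at and TET2 235461_at and 1569385_s_at lay lowest.

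Genes that work with these enzymes were read from the same fit on the brightest probe set of each gene, of which 17.8% passed over all 20282 genes, 12.1% higher and 5.7% lower. Over 9 lists with 100 measured entries, 12 rose, 6 fell and 82 did not pass, so that 18 of 100 were called, near the background of all genes. With knockdown replicates 1 and 2 only 5 of the 100 passed, and with the 18S covariate 0 passed by limma (14 had an unadjusted p under 0.05). Within that total the calls were unevenly placed. These shares over all genes do not apply to the counts on any probe set given below. A gene with more probe sets has more chances of a call there, and no like share over all genes is given.

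Genes of the methyl-CpG reader families, which hold the proteins that recognize methylated DNA and their relatives, were called in the higher direction. Of 10 readers 5 rose, 0 fell and 5 did not pass, with a median of 0.27 against 0.029 over all genes. MBD5, which with MBD6 joins a histone H2A deubiquitinase complex, was at 7.07, 7.09, 7.01 and 7.05 in knockdown arrays, against 6.03, 5.83, 6.30 and 6.36 in control arrays, a rise of 0.92 ± 0.11 (SE; adjusted p = 0.00101). MBD3, a subunit of the NuRD complex that binds methylated DNA weakly in mammals, was at 10.21, 10.27, 10.63 and 10.56 in knockdown arrays, against 9.89, 9.76, 9.47 and 9.36 in control arrays. It rose by 0.80 ± 0.14 (adjusted p = 0.00436). MBD6 rose by 0.50 ± 0.12 (adjusted p = 0.0184), and a second probe set of each of these 3 genes rose too. MBD1 (0.36), which also rose, was named because the count is small, after its value was seen. On the brightest probe set of each of these 4 genes the groups did not overlap. MBD6 no longer passed in 3 of the 8 fits with an array left out (adjusted p up to 0.0601). MBD5 passed with knockdown replicates 1 and 2 only (0.95; adjusted p = 0.0198), while MBD3 (0.62) and MBD6 (0.38) did not, and with the 18S covariate their differences were 0.88, 0.53 and 0.15 and did not pass. The number of readers that rose was 3 by the methods' t-test, 1 with knockdown replicates 1 and 2 only, and 0 by limma with the 18S covariate.

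Partners of maintenance methylation were called in both directions, although DNMT1 and UHRF1 themselves were not called. Of 8 measured partners 2 rose, 2 fell and 4 did not pass, with a median of -0.07. On any probe set 6 of the 8 were called, without a like share over all genes to set it against. KAT5, an acetyltransferase that acts on DNMT1, rose by 0.63 ± 0.09 (SE; adjusted p = 0.00259), on all 3 of its probe sets. USP7, a deubiquitinase that stabilizes DNMT1 and UHRF1, fell by 0.42 ± 0.07 (adjusted p = 0.00434), and 2 of its 3 other probe sets fell too. CDCA7, a zinc finger partner of the remodeller HELLS, fell by 0.39 ± 0.08 (adjusted p = 0.01), and its second probe set fell by 1.14 ± 0.25. HDAC1 (0.27) was the other that rose, named after its value was seen, while PCNA, the sliding clamp of replication, had a difference of -0.01. With knockdown replicates 1 and 2 only, KAT5 alone of the 8 passed (0.52; adjusted p = 0.0443), and USP7 and CDCA7 differed by -0.34 and -0.30. With the 18S covariate the differences of KAT5, USP7 and CDCA7 were 0.34, -0.25 and -0.25, and 0 of the 8 passed by limma. UHRF2, the paralog of UHRF1, differed by 0.30 ± 0.09 without passing (adjusted p = 0.0508). It passed with array weights, median centring, the filter on dim probe sets or the replicate block (adjusted p from 0.0213 to 0.0462), and differed by 0.21 with knockdown replicates 1 and 2 only and 0.04 with the 18S covariate. Nor did the other 2 relatives, DNMT3L and TRDMT1, pass (0 of 3 by limma and by the methods' t-test; 2 of 3 with an unadjusted p under 0.05).

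In the other lists the calls were spread over both directions or absent. Of 10 partners of de novo methylation 0 passed by limma (6 had an unadjusted p under 0.05, and 1 passed the methods' t-test); the smallest p was that of SETDB1, a histone H3 lysine 9 methyltransferase, with a difference of 0.47 ± 0.15 (adjusted p = 0.0561). Its second probe set rose by 0.41 ± 0.10 (adjusted p = 0.0176), and on any probe set 4 of the 10 genes were called. The brightest SETDB1 probe set passed with array weights, median centring, the filter on dim probe sets or the replicate block (adjusted p from 0.0173 to 0.0451), and differed by 0.22 with knockdown replicates 1 and 2 only and by -0.15 with the 18S covariate. Of 17 TET partners and base excision repair genes 2 rose and 1 fell. SMUG1, a uracil DNA glycosylase, rose by 0.62 ± 0.09 (adjusted p = 0.00175), XRCC1, a repair scaffold, rose by 0.33 ± 0.09 (adjusted p = 0.0403; it passed in 2 of the 8 fits with an array left out), and OGT, the O-GlcNAc transferase that binds TET proteins, fell by 0.59 ± 0.11 (adjusted p = 0.00585) on its brightest probe set, while its 4 others did not pass. With knockdown replicates 1 and 2 only, SMUG1 passed (0.53; adjusted p = 0.0309), while XRCC1 (0.17) and OGT (-0.49) did not, and with the 18S covariate their differences were 0.39, 0.0029 and -0.47 and did not pass. TDG, the glycosylase that removes TET products, had a difference of -0.15. Of 9 genes of the S-adenosylmethionine cycle, which supplies the methyl group, 0 passed on the brightest probe set by limma or by the methods' t-test and 0 had an unadjusted p under 0.05. On any probe set 1 of the 9 was called. AHCY had the smallest p (-0.13 ± 0.07, limma, adjusted p = 0.227). Of 14 genes that make or use 2-oxoglutarate or its competitors 2 rose and 2 fell, with IDH3G (0.55), GLUD1 (-0.48) and IDH3A (-0.45) the largest. Of these, IDH3G passed in 2 and IDH3A in 3 of the 8 fits with an array left out. On any probe set 7 of the 14 genes were called, and 0 of the 14 passed on the brightest with knockdown replicates 1 and 2 only by limma.

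**Figure D4:**
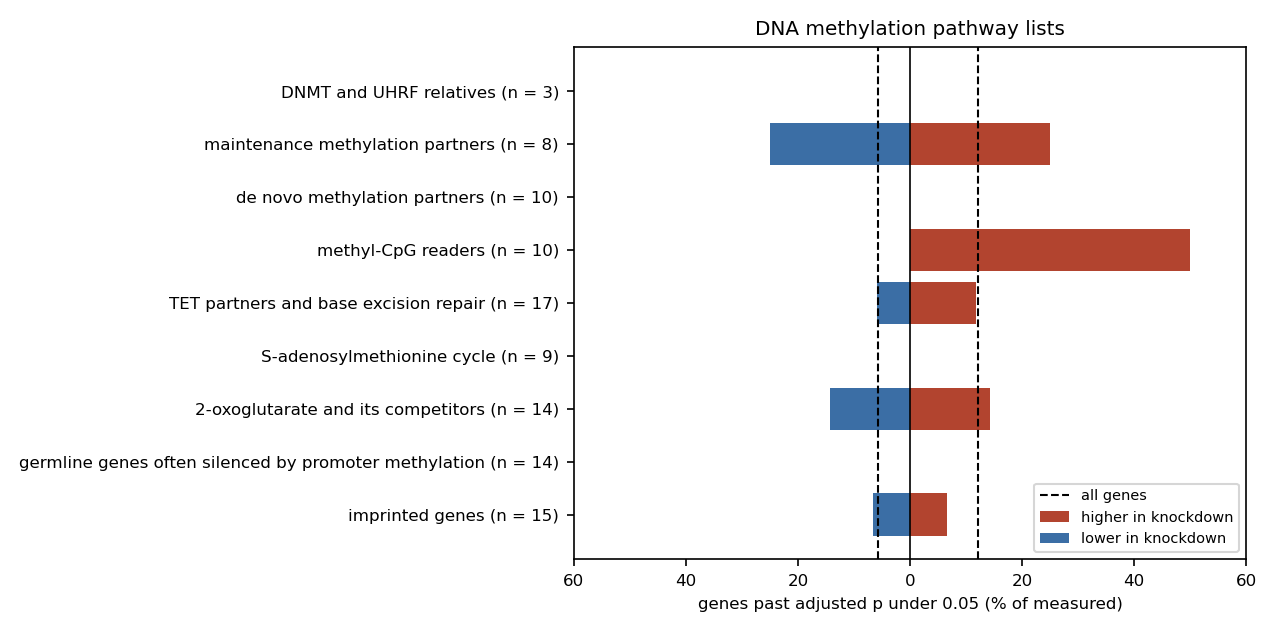
Share of the measured genes of each list (y axis, with the number measured) whose brightest probe set passed an adjusted p under 0.05 (x axis, %), with genes higher in knockdown arrays to the right in red and lower ones to the left in blue. Dashed lines are the shares over all genes, 12.1% higher and 5.7% lower; of the methyl-CpG readers 5 of 10 were higher and none lower by limma.

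The genes whose profiles over the 8 arrays were most like those of the members were ranked by Pearson correlation among 11093 genes with a mean of at least 6. The profiles share the group difference and the array signal, and the values are a description. For TET3 the nearest were ATRX (r = 0.998), BAD (0.995) and HRAS (0.995), for DNMT3A ENDOG, SETD4 (both 0.993) and NICOL1 (0.991), and for TET2 DIAPH3 (0.986), ARL6IP1 and ZNF189 (both 0.983). For DNMT3B they were WDR59 (0.990), PAXIP1-AS2 (0.983) and SPRED2 (0.981), and for TET1 ANKHD1 (0.979), BICRAL (0.978) and PABPC4 (0.972). DNMT1 was nearest to ZNF501 (0.978), NONO (0.977) and CDC6 (0.971), and UHRF1 to MPST (0.925), MOB1A (0.922) and PTBP3 (0.919).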

How the data were processed

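The authors deposited log2 values made with RMA, per the submitters' processing notes, with no version stated there. The workbook that was also deposited repeats these log2 values (largest difference 5.0e-09) beside gene symbols, the authors' unadjusted p-value, matched by an equal-variance test to within 1.75e-07, and the authors' ratio of knockdown over control. Differences were fitted with limma 3.58.1 in R 4.3.3 (lmFit, eBayes, 6 residual degrees of freedom, two-sided) on 54613 probe sets after leaving out 62 control probe sets, with no filter, and adjusted by Benjamini-Hochberg over all of them. List genes were read on their brightest probe set (mean over 8 arrays), with symbols updated by gene ID for 40280 of 41489 single-symbol probe sets (RefSeq, GRCh38.p14). Exact tests used all 70 assignments. Arrays give no counts, so their number limits the precision. The fit was tested on simulated data. Members, lists and alternatives were chosen with earlier results of these data known. The named list genes are up to 3 called genes with the largest differences, or the gene with the smallest p. Replicate numbers were checked for pairing: deviations of same-numbered arrays correlated with r from -0.0872 to 0.0572, so they were not treated as pairs. Sequences came from RefSeq. Alternatives were the methods' t-test, the mean-variance trend, array weights, median centring, a filter on dim probe sets, the replicate block, the 18S covariate and fewer arrays. Figures were drawn with matplotlib 3.10.9. Some items are not reported here.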

Additional observations from a re-analysis of the deposited data

Results flagged for a closer look

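Values of 32 probe sets were examined in both groups for an array that stood far from the other 3 of its group, and 2 of the 64 groups held one; chance gives about 1 in 20. DNMT1 was at 12.71 in control replicate 4, while the next highest control array was at 12.42. MAGEC2, a dim germline gene, was at 3.73 in knockdown replicate 2, while the next lowest knockdown array was at 4.21. Without that array the difference of MAGEC2 was 0.41 and passed (limma, adjusted p = 0.0153). Without control replicate 4 the difference of DNMT1 was 0.13 and did not pass (limma, adjusted p = 0.262).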

How the results depend on the processing

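Of the 7 genes' 13 probe sets, 8 passed (5 rose, 3 fell), against 2 by the methods' t-test, 1 with knockdown replicates 1 and 2 only, 0 with the 18S covariate by limma and 4 to 8 with an array left out (lowest without control replicate 3 or knockdown replicate 4). The whole array held 7592 calls, against 3910, 1943, 48 and 4438 to 7430 in the same order. Of the 100 list genes 18 passed, against 28 with array weights, 5 with knockdown replicates 1 and 2 only, 0 with the 18S covariate by limma, 29 where any probe set of a gene counted and 12 to 23 with an array left out. Differences turned sign with the 18S covariate for DNMT1 (-0.04), DNMT3A 218457_s_at (0.22), TET2 1569385_s_at (0.24), TET2 235461_at (0.11), SETDB1 (-0.15) and IDH3G (-0.0027), and with median centring for UHRF1 (0.01). The 18S signal differs between the groups, so this covariate takes up part of the group difference by construction. The replicate block gave 19 calls among the list genes, 12 higher and 7 lower, against 12 and 6 in the main fit. Of the named list genes, UHRF2 and SETDB1 gained a call and XRCC1 lost its call, and calls of list genes outside these also changed. Among the 13 probe sets the block gave 6 calls, ending those of DNMT3A 222640_at (adjusted p = 0.0514) and TET2 227624_at (0.0845). The numbers do not pair the arrays, and no other of the 8 calls ended under the block. The mean-variance trend and median centring gave 8 calls each, and the filter on dim probe sets 6 of 10. Array weights gave 9, 4 higher and 5 lower: DNMT3A 244428_at lost its call (adjusted p = 0.051), and DNMT3A 218457_s_at (0.0402) and TET2 1569385_s_at (0.0318) were called lower. Causes of the other changes were not tested.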

Other observations

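Genes that are often silenced by promoter methylation stayed dim in both groups. All 14 germline genes measured averaged under 6 over the 8 arrays, with a median group level of 3.76 in knockdown and 3.73 in control arrays. By limma 0 of them passed, and by the methods' t-test 0 passed as well, while 1 had an unadjusted p under 0.05 (MAGEC2, a difference of 0.28 ± 0.12, adjusted p = 0.162). Without knockdown replicate 2 MAGEC2 passed (0.41, adjusted p = 0.0153), so that 1 of the 14 was called.

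Of 15 imprinted genes measured, 10 averaged under 6, 1 rose, 1 fell and 13 did not pass, a share called of 13.3% against 17.8% over all genes. On any probe set 3 of the 15 were called, a count to which the share of 17.8% does not apply. NDN, a MAGE-family gene, was at 9.45, 9.44, 9.54 and 9.47 in knockdown arrays, against 8.89, 8.78, 8.81 and 8.71 in control arrays, a rise of 0.68 ± 0.07 (SE; limma, adjusted p = 0.000579). GRB10, a growth factor receptor adaptor, was at 9.87, 9.79, 9.69 and 9.77 in knockdown arrays, against 10.41, 10.48, 10.69 and 10.90 in control arrays. It fell by 0.84 ± 0.11 (adjusted p = 0.00126), and its 3 other probe sets fell too. The groups of both genes did not overlap, and both passed with each array left out and with knockdown replicates 1 and 2 only (NDN 0.65, adjusted p = 0.0157; GRB10 -0.79, adjusted p = 0.027). With the 18S covariate neither passed (NDN 0.64, adjusted p = 0.0956; GRB10 -0.83, adjusted p = 0.138). DNA methylation itself was not measured in these cultures.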
